A study of Mus musculus with 65 samples.

Results

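Chromatin occupancy was examined at the loci of 3 red cell gas transport genes, Car1, Car2 and Slc4a1, in mouse G1E-ER4 cells. The members were all deposited chromatin immunoprecipitation sequencing (ChIP-seq) peaks with at least 1 bp in either of 2 windows. The window for Car1 and Car2 was chr3:14740000-14930000 (190 kb), and the window for Slc4a1 was chr11:102160000-102280000 (120 kb), both in build mm9. Together they held 74 of 143220 peaks, 33 in the Car1 and Car2 window and 41 in the Slc4a1 window.

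Carbonic anhydrases interconvert carbon dioxide and bicarbonate. Car1 and Car2 encode the cytosolic enzymes of the red cell, and Slc4a1 encodes band 3, the chloride and bicarbonate exchanger of its membrane, so the 3 products act in the same transport of carbon dioxide from tissue to lung. In erythroid cells the DNA-binding factors GATA1 and TAL1 recruit LDB1, a cofactor that does not bind DNA itself and can join distant elements by dimerising. Car2 is a known case in which an LDB1-bound enhancer contacts the promoter. CTCF is a DNA-binding protein that stops the ring-shaped cohesin complex, of which RAD21 and SMC3 are subunits, and YY1 is a zinc finger factor common at promoters and enhancers.

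G1E-ER4 is an erythroblast line that lacks endogenous GATA1 and carries an oestrogen-responsive form of it. Whether that form was induced is not given in the sources used here. Both sublines, LDB1-AID and SMC3-AID, were engineered so that LDB1 or SMC3, respectively, bears a degron through which auxin has the protein degraded. Cells of each subline were left untreated or received auxin for 4 h, and the tag was present in both conditions. Whether a subline is 1 clone is not stated. Untreated LDB1-AID cells had peak sets for LDB1, RAD21, CTCF and YY1, and auxin-treated LDB1-AID cells had one for LDB1, each built by the authors from 2 replicates. SMC3-AID cells had LDB1 and RAD21 sets without and with auxin, each built from 3 replicates. The replicates were merged before deposit and the peaks carry no height, so replicate error and read depth are unknown and no test between conditions could be made. The whole sets ranged from 25 peaks (RAD21 after auxin in SMC3-AID cells) to 54286 (CTCF), and every peak was 400 bp wide. The files used here hold no expression values, so the labelled cell type was not checked.

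Peaks of different sets that shared at least 1 bp, directly or through another peak, were merged into 33 sites, 11 in the Car1 and Car2 window and 22 in the Slc4a1 window. LDB1 was present at 9 sites, RAD21 at 16, CTCF at 17 and YY1 at 9. At 6 of the 9 LDB1 sites no peak of another protein was found, and at none of the 9 was there a CTCF peak. Counted over the LDB1 peaks of untreated LDB1-AID cells alone, 7 of 9 had no RAD21, CTCF or YY1 peak, against 61.5% of all such peaks. A CTCF peak overlapped 0 of these 9, against 7.4% of all LDB1 peaks of these cells. In the gene table used for names (RefSeq, GRCm38.p6), Car1, Car3 and Car2 follow one another along chromosome 3 among protein-coding genes. On chromosome 11, Slc4a1 lies between Ubtf and Rundc3a, and the long noncoding RNA gene Bloodlinc lies on the Rundc3a side. That table is of another build than the peaks, so no peak was assigned to an exon, an intron or a promoter.

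The Car1 and Car2 window held 5 LDB1 peaks in untreated LDB1-AID cells, at merged sites that together spanned 108 kb. From low to high coordinates they are called sites A to E here. Site A (chr3:14808329-14808728) stood alone, with the next LDB1 peak 69.2 kb away and the nearest RAD21 peak 61.5 kb away. Its LDB1 peak was present in untreated LDB1-AID cells and in SMC3-AID cells without and with auxin, and was absent from LDB1-AID cells after auxin. No RAD21, CTCF or YY1 peak lay on it in any set.

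Sites B and C formed a pair whose midpoints were 1.36 kb apart. Site B (chr3:14877499-14877898) carried an LDB1 peak in the same 3 sets as site A, and also a RAD21 peak of LDB1-AID cells whose midpoint was 22 bp from that of LDB1. No CTCF peak and no RAD21 peak of SMC3-AID cells was found there. Site C (chr3:14878857-14879256) again had LDB1 in those 3 sets. A YY1 peak (chr3:14879257-14879656) began at the base next to the end of the LDB1 peak of LDB1-AID cells, with 0 bp in common, while it shared 106 bp with the untreated LDB1 peak of SMC3-AID cells. Site C therefore counts as a YY1 site in one subline's comparison and not in the other's.

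Site D (chr3:14890017-14890416), 11.2 kb beyond site C, was the LDB1 site found in a single set. It had an LDB1 peak in untreated LDB1-AID cells and none in SMC3-AID cells in either condition. Its nearest CTCF peak was 2.27 kb away and its nearest RAD21 peak 2.49 kb away. Site E (chr3:14915397-14915796) lay 25.4 kb further and held the most sets of any site, with LDB1 in 3 sets and RAD21 and YY1 of LDB1-AID cells. Its RAD21 midpoint was 92 bp and its YY1 midpoint 72 bp from that of LDB1, and the nearest CTCF peak was 23.1 kb away.

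**Figure D1:**
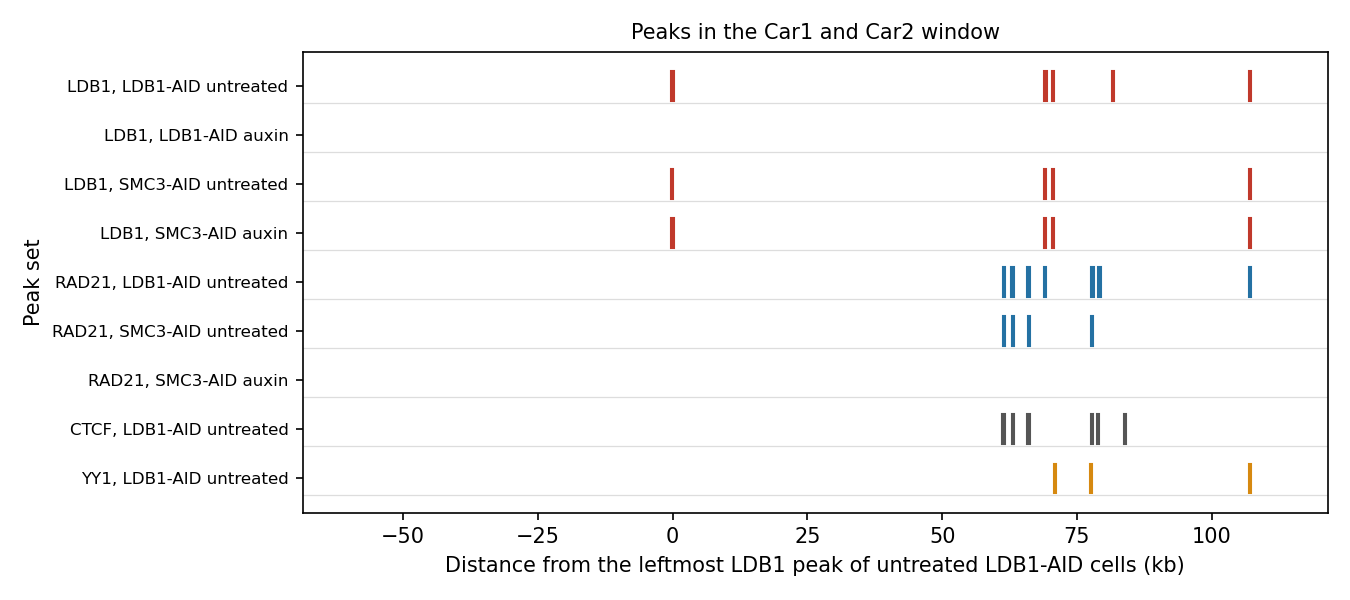
Peaks of each set in the Car1 and Car2 window, drawn to scale as 400 bp boxes; the x axis is the distance in kb from the leftmost LDB1 peak of untreated LDB1-AID cells and each row is 1 peak set. LDB1 peaks recur at 4 positions in 3 of the 4 LDB1 rows, and the rows for LDB1 after auxin in LDB1-AID cells and for RAD21 after auxin in SMC3-AID cells are empty.

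The 6 sites of this window without LDB1 all carried CTCF, and all of them lay between the outermost LDB1 sites, A and E. A RAD21 peak was present at 5 of them, and 1 had CTCF alone. LDB1-AID cells had 7 RAD21 peaks here, of which 5 lay on CTCF and the other 2 were those at the LDB1 sites B and E. The SMC3-AID set held 4 RAD21 peaks in the window, and each of these lay on a CTCF peak. The CTCF sites nearest to the pair B and C were chr3:14874352-14874826, which carried CTCF of LDB1-AID cells and RAD21 of both sublines, and chr3:14885932-14886625, which carried these and YY1 of LDB1-AID cells.

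The Slc4a1 window showed another arrangement. Its 4 LDB1 peaks, called sites F to I here, lay within 12 kb, and no site of another protein fell between them. Site F (chr11:102224910-102225309) and site G (chr11:102226365-102226764) were 1.46 kb apart, site H (chr11:102229689-102230088) followed after 3.32 kb, and site I (chr11:102236455-102236854) after another 6.77 kb. Each of the 4 had an LDB1 peak in untreated LDB1-AID cells and in SMC3-AID cells without and with auxin, and none had one in LDB1-AID cells after auxin. No RAD21, CTCF or YY1 peak overlapped any of them.

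The RAD21 peaks of both sublines lay outside this group. The nearest RAD21 peaks on its 2 sides, from either subline, bounded a stretch of 67.3 kb (chr11:102201299-102268600), which by this definition holds no RAD21 peak. Besides the 4 LDB1 peaks, 3 CTCF peaks, 1 of them reaching in across the low-coordinate end, and 1 YY1 peak at the far edge had at least 1 bp in the stretch. One of these CTCF peaks (chr11:102238499-102238898) was 2.04 kb from site I, midpoint to midpoint, and carried no RAD21 peak. On the low-coordinate side the stretch ended at a site with CTCF and RAD21 of LDB1-AID cells (chr11:102200899-102201348). With the genome cut into pieces of 120 kb, the median was 0 RAD21 peaks per piece in the untreated set of either subline. A stretch of this length without RAD21 is therefore not particular to this locus.

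**Figure D2:**
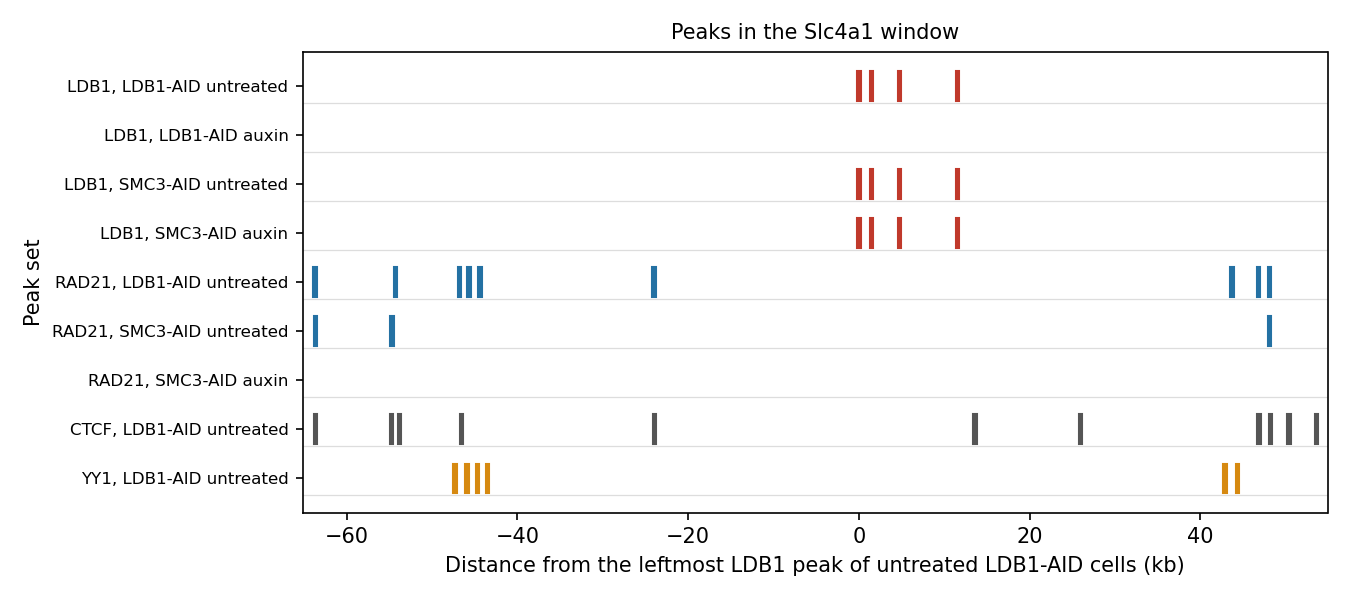
Peaks of each set in the Slc4a1 window, drawn to scale as 400 bp boxes; the x axis is the distance in kb from the leftmost LDB1 peak of untreated LDB1-AID cells and each row is 1 peak set. The 4 LDB1 peaks sit within 12 kb, and the RAD21 and YY1 peaks lie to either side of them.

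Outside the LDB1 group, the Slc4a1 window held peaks of the other 3 proteins. In LDB1-AID cells it held 11 CTCF, 9 RAD21 and 6 YY1 peaks, and in SMC3-AID cells 3 RAD21 peaks. CTCF met RAD21 at 6 sites and was alone at 5. YY1 was alone at 4 sites and shared a site with RAD21, without CTCF, at the other 2, chr11:102178983-102179618 and chr11:102180261-102180922. These 2 were singled out after their values were seen. Alone means only that no base was shared: the 4 such YY1 peaks lay 99 to 502 bp from a RAD21 peak of LDB1-AID cells. The YY1 peak of site chr11:102178983-102179618 lay 208 bp from a CTCF peak. All 6 YY1 peaks lay in 2 groups of neighbours, 4 on the low-coordinate side of the LDB1 peaks and 2 on the high-coordinate side.

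For scale, the genome was cut into tiles of the same length as each window, and the share of tiles with at least as many peaks was counted. Of 13870 tiles of 190 kb, 4.41% had 5 or more LDB1 peaks of untreated LDB1-AID cells, as the Car1 and Car2 window did, against a median of 0 per tile. For RAD21 of LDB1-AID cells (7 peaks) the share was 12%, for CTCF (6 peaks) 26.8% and for YY1 (3 peaks) 13.7%. Of 21968 tiles of 120 kb, 3.45% had 4 or more LDB1 peaks, 1.63% had 9 or more RAD21 peaks, 3.79% had 11 or more CTCF peaks and 1.3% had 6 or more YY1 peaks. The last 3 of these rest on where the window ends: with 20 kb taken off each side of the Slc4a1 window, 2 RAD21, 3 CTCF and 2 YY1 peaks were left, while the LDB1 count stayed at 4. In the Car1 and Car2 window the same step left 4 LDB1 peaks of LDB1-AID cells. The tile shares are descriptions, since the windows were chosen around known erythroid genes.

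The first comparison between conditions asked what was left of LDB1 after its own degradation. None of the 9 untreated LDB1 peaks of LDB1-AID cells was kept after auxin, where a peak counts as kept if a peak of the second set covers at least 1 of its bases. With 9 peaks a count of 0 allows a share of up to 33.3%. Over all LDB1 peaks on chromosomes 1 to 19, X and Y the share kept was 7.77%, so 0 of 9 could not be told apart from the rest of the genome. The auxin set held no peak in either window. It was sparse, with 49 peaks on all of chromosome 3 and 65 on chromosome 11. Its nearest peak lay 4229 kb from the Car1 and Car2 window (chr3:19158563-19158962) and 813 kb from the Slc4a1 window (chr11:101346901-101347300). These distances were not compared with those at other loci.

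The second comparison asked what happened to LDB1 when cohesin was degraded. In SMC3-AID cells, 4 of 4 LDB1 peaks of the Car1 and Car2 window and 4 of 4 of the Slc4a1 window were kept after auxin. The combined share, 8 of 8, had a Wilson 95% interval of 67.6 to 100%, which covers counting error only. Over the whole set 78.2% were kept, a value inside that interval. In reverse, all 8 LDB1 peaks of the windows after auxin had an untreated counterpart, against 92.8% of the whole set. The midpoints before and after auxin differed by 19, 20, 47 and 6 bp at sites A, B, C and E, and by 0, 5, 46 and 22 bp at sites F to I. The median over all 6715 kept peaks was 19 bp.

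RAD21 peaks of the same cells were lost. None of the 7 untreated RAD21 peaks of SMC3-AID cells in the windows was kept after auxin (4 in the Car1 and Car2 window and 3 in the Slc4a1 window), where a count of 0 allows a share of up to 42.9%. Over the whole set 0.092% were kept. The auxin set had 0 RAD21 peaks on chromosome 3 and 0 on chromosome 11. At sites A to C and E to I, LDB1 peaks were thus listed in SMC3-AID cells after auxin while no RAD21 peak was listed anywhere on these chromosomes. Before auxin, however, 0 of these 8 LDB1 peaks carried a RAD21 peak of SMC3-AID cells, against 5.2% of the whole set. Loss of RAD21 at the LDB1 sites themselves could therefore not be observed, and the RAD21 peaks lost lay elsewhere in the windows.

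**Figure D3:**
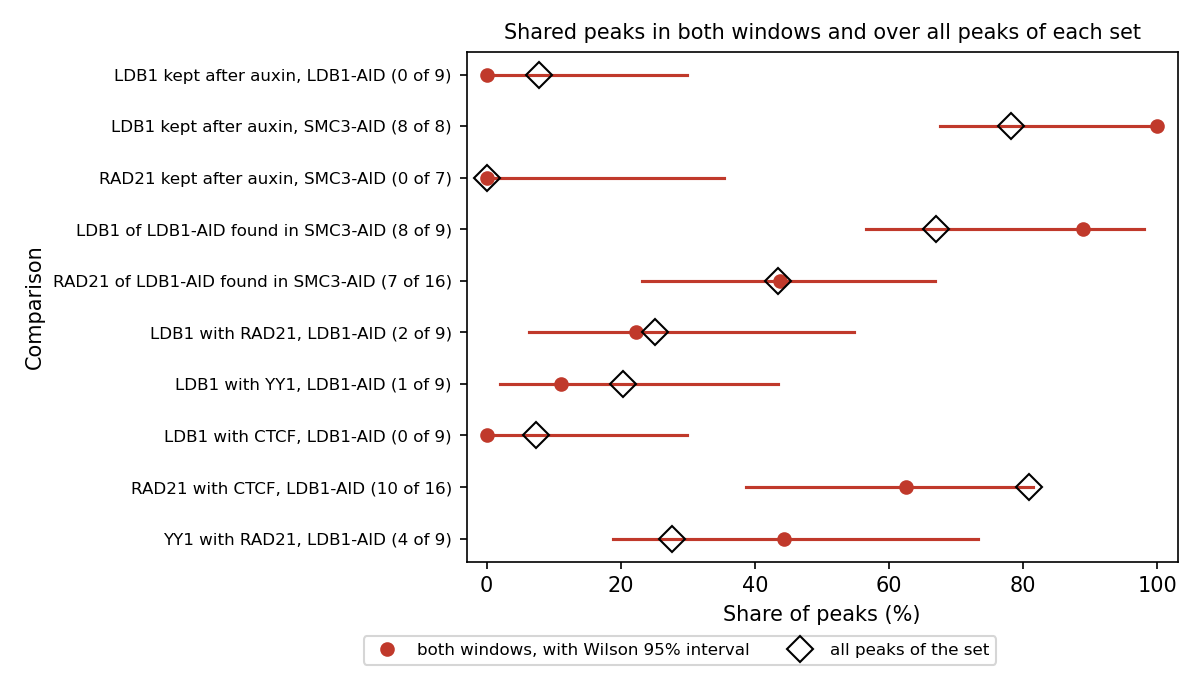
Share of peaks with a counterpart in a second set (x axis, %) for 10 comparisons; red points are the peaks of both windows with their Wilson 95% interval, open diamonds are all peaks of the same set on chromosomes 1 to 19, X and Y, and the counts stand beside each name. In each of the 10 rows the diamond lies within the interval of the windows.

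The untreated sublines were then set side by side. In LDB1-AID cells the windows had 9 LDB1 peaks, and 8 of them were matched in untreated SMC3-AID cells (88.9%, Wilson interval 56.5 to 98%), against 67% of the whole set, and site D was the one not found. In the other direction 8 of 8 were found, against 84.1%. The matched LDB1 midpoints differed by 32, 74, 106 and 28 bp at sites A, B, C and E and by 7, 20, 44 and 16 bp at sites F to I, while the median over all 7192 matched peaks was 25 bp.

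RAD21 was set side by side in the same way. Of the windows' 16 RAD21 peaks in LDB1-AID cells, 7 had a match in SMC3-AID cells (43.8%, 23.1 to 66.8%), close to the 43.4% of the whole set. The windows held 10 RAD21 peaks with CTCF, of which 6 were found (60%, 31.3 to 83.2%), against 50.7% of all such peaks. They held 6 without CTCF, of which 1 was found (16.7%, 3.01 to 56.4%), against 12.4%. The 5 not found included both RAD21 peaks at LDB1 sites, B and E. Each of the 7 RAD21 peaks in SMC3-AID cells had a match in LDB1-AID cells, against 94.6% of that set, and all 7 lay on a CTCF peak, against 92.3%. One of these matches rested on 1 bp, between chr11:102170213-102170612 of SMC3-AID cells and chr11:102170612-102171011 of LDB1-AID cells. The latter was the 1 RAD21 peak without CTCF that was found, so the 16.7% rests on this 1 bp. It lay between a pair of CTCF peaks, 22 bp from one and 77 bp from the other.

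Co-occupancy was counted in untreated LDB1-AID cells, where all 4 proteins were profiled. A RAD21 peak overlapped 2 of 5 LDB1 peaks of the Car1 and Car2 window and 0 of 4 of the Slc4a1 window, together 22.2% (6.32 to 54.7%), against 25.1% of all LDB1 peaks. A YY1 peak overlapped 1 of 5 and 0 of 4, together 11.1% (1.99 to 43.5%), against 20.4%. CTCF overlapped none of the 9, which allows a share of up to 33.3%, against 7.4% of all LDB1 peaks. With the smaller RAD21 set of untreated SMC3-AID cells, 0 of 8 LDB1 peaks carried RAD21, which allows up to 37.5%, against 5.2% of all LDB1 peaks of untreated SMC3-AID cells. Without any RAD21, YY1 or CTCF peak were 7 of the 9 LDB1 peaks (77.8%, 45.3 to 93.7%), 3 of 5 in the Car1 and Car2 window and 4 of 4 in the Slc4a1 window. The 7 include site C, where the YY1 peak was reached through LDB1 of SMC3-AID cells alone. Each of these shares of the windows had an interval that included the share of the whole set, so no difference between these loci and the genome was detectable with so few peaks.

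Among the other proteins, 10 of 16 RAD21 peaks lay on CTCF (62.5%, 38.6 to 81.5%), against 80.9% of all RAD21 peaks, and 10 of 17 CTCF peaks carried RAD21 (58.8%, 36 to 78.4%), against 49.5%. Of 9 YY1 peaks, 4 overlapped RAD21 (44.4%, 18.9 to 73.3%), against 27.6%. That share moved to 11.1% if 50% of both peaks had to be in common, and to 88.9% if peaks up to 1 kb apart also counted. Of the same 9 peaks, 1 overlapped CTCF (11.1%, 1.99 to 43.5%), against 17.1%. For all 4 shares, at 1 bp in common, the intervals included the whole-set values.

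The 2 windows were then described by how far each LDB1 peak lay from its neighbours. In the Slc4a1 window the nearest RAD21 peak was 24 to 32.1 kb away at all 4 sites, beyond the upper quartile of all 10729 LDB1 peaks (15.7 kb, median 5.32 kb). In the Car1 and Car2 window it was 22 bp to 2.49 kb away at sites B to E and 61.5 kb at site A. For YY1 the Slc4a1 distances were 31.3 to 42.9 kb, against a median of 10.5 kb and an upper quartile of 40.6 kb over all LDB1 peaks. Those of the Car1 and Car2 window were 72 bp to 4.08 kb, with 70.9 kb at site A. For CTCF the windows overlapped, with 2.04 to 13.6 kb in the Slc4a1 window and 2.27 to 61.4 kb in the Car1 and Car2 window, against a median of 6.32 kb. The peaks of a window share their neighbours, so these distances are not independent, and the difference between the windows was not tested.

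**Figure D4:**
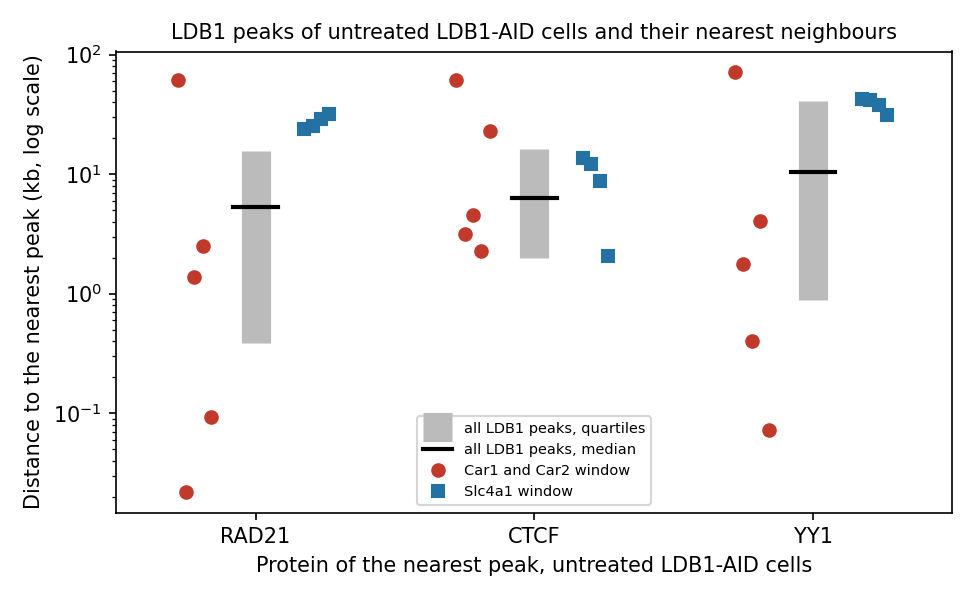
Distance in kb (log scale) from each LDB1 peak of untreated LDB1-AID cells to the nearest RAD21, CTCF or YY1 peak, midpoint to midpoint; circles are the 5 peaks of the Car1 and Car2 window, squares the 4 of the Slc4a1 window, grey bars the quartiles and black lines the medians of all LDB1 peaks. For RAD21 the 4 squares lie above the grey bar, at 24 to 32.1 kb, while 4 of the 5 circles lie below the black line.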

How the data were processed

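The deposited files are lists of peak positions in bp, without score, signal or header. Per the labels, each list combines all replicates of its group: 22 of 65 samples lie behind the 9 sets, and the other 43 were not analysed here. The submitters' processing notes name Bowtie2, MACS2 2.2.9.1, deepTools 3.5.1 and build mm9. The peak threshold, filters and rule for combining replicates are not given in the sources used here. Calling, depth and antibody can all set how many peaks a set holds.

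Positions were converted to 1-based coordinates. Windows were compared with all peaks on chromosomes 1 to 19, X and Y. Shares have Wilson 95% intervals (scipy 1.17.1), the limit for a count of 0 is 3 peaks of the total, and both cover counting error only. The overlap rules were tested on simulated data and against bedtools 2.31.1. Tiles ran without overlap from the start of chromosomes 1 to 19 and X. The windows, members and lists were chosen with earlier results of these data known, and no p-value was computed. Every site with LDB1 was named. Promoter sequences of Car1, Car2 and Slc4a1 were not analysed here.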

Additional observations from a re-analysis of the deposited data

How the results depend on the processing

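Overlap was also scored in 3 other ways (50% of both peaks in common, a gap of up to 1 kb, or midpoints within 500 bp), both windows were widened by 50 kb or narrowed by 20 kb on each side, and counts were repeated by peak midpoint. Of 100 alternative shares, 95 stayed within the Wilson interval of the reported share, and of 54 alternative counts, 46 stayed within 1.5 times. These tallies are a weak check, because intervals from so few peaks are wide. For example, LDB1 peaks with YY1 stayed inside at 22.2% in place of 11.1%, with midpoints within 500 bp. The unmoved counts also include the empty auxin sets, which stayed at 0. The share of LDB1 peaks without any other protein, added after seeing the data, ranged from 66.7 to 87.5%. With 50% of both peaks in common, the share of RAD21 peaks without CTCF found in SMC3-AID cells was 0% in place of 16.7%, and that of YY1 peaks with RAD21 was 11.1% in place of 44.4%. With a gap of 1 kb allowed, the latter was 88.9%. In the narrower windows the share of RAD21 peaks without CTCF found in SMC3-AID cells was 0% (0 of 2) and that of LDB1 peaks with YY1 was 0%, since site E fell outside. In the Slc4a1 window, the wider and narrower edges gave 16 and 2 RAD21 peaks of LDB1-AID cells, 6 and 0 of SMC3-AID cells, 24 and 3 CTCF peaks and 10 and 2 YY1 peaks, while the LDB1 counts stayed at 4 and, after auxin in LDB1-AID cells, at 0. In the Car1 and Car2 window, the wider and narrower edges gave 6 and 4 LDB1 peaks of untreated LDB1-AID cells and 3 and 2 YY1 peaks. The wider windows together held 10 LDB1 peaks of these cells, of which 8 were found in untreated SMC3-AID cells (80%). No paired analysis was possible because the replicates of each group had been combined before deposit. For the same reason no replicate was left out, and without scores no stricter peak threshold was tried. Peak height and depth are unknown, so a lower occupancy at a peak that was still called would not be seen.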
